A study of Mus musculus with 6 samples.

Results

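The dystrophin-glycoprotein complex ties the cytoskeleton of a muscle fibre to the basement membrane, and 7 of its genes were described together with *Aqp4*, a water channel held at the same membrane. The 8 genes were *Dmd*, *Utrn*, *Sgca*, *Sgcb*, *Sgcd*, *Dag1*, *Dtna* and *Aqp4*, out of 18089 genes in the table, and all 8 were among the 14395 genes that passed the filter on low counts. They were chosen by name, with the comparison of *Gpr174*-/Y with WT muscle already known, so their differences between the groups are given as a description and carry no test. RNA was taken from the ischemic gastrocnemius muscle of 3 WT and 3 *Gpr174*-/Y mice 7 days after hindlimb ischemia (HLI), in which the femoral artery was tied and cut out on the left side. The mice were C57BL/6 males, 8 to 10 weeks old. The X-linked gene *Gpr174*, which encodes a G protein-coupled receptor found mainly on lymphocytes, was disrupted in every cell of the *Gpr174*-/Y mice, and their controls were WT littermates. Both groups had HLI, so no muscle with intact blood flow enters the comparison, and the labels do not say whether a library held more than 1 animal.

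In a muscle fibre, dystrophin binds actin beneath the membrane and the transmembrane protein dystroglycan, which in turn holds laminin outside the cell. The sarcoglycans form a subcomplex beside dystroglycan, dystrobrevin and the syntrophins form a cytoplasmic one, and utrophin is a relative of dystrophin that takes its place at the neuromuscular junction and along the membrane of regenerating fibres. Loss of single members causes muscular dystrophies. Aquaporin 4 sits in the membrane of fast-twitch fibres, where the syntrophins anchor it.

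Total counts were between 18417107 and 18695036 in the WT libraries and between 19173051 and 19394505 in the *Gpr174*-/Y libraries. The floor of 3 counts was between 0.155 and 0.163 CPM (counts scaled to a common library total), which covers counting error only. It was taken from library totals alone, without the further scaling described below, which the other CPM carry. For *Gpr174* itself, 8, 2 and 5 counts were found in the WT libraries, against 1, 0 and 0 in the knockout ones. Over 3859 abundant genes, replicate 2 lay between replicates 1 and 3 for 86.0% of genes in the WT group and for 76.5% in the *Gpr174*-/Y group, and WT replicates 1 and 3 differed most from each other. For this reason, values are given for each library in the order of its replicate number, which carries no meaning of its own. Markers of mature fibres took 13.4% to 18.0% of the counts in WT and 7.02% to 7.56% in *Gpr174*-/Y muscle, and no marker of the 18 was at 0 in any library. CPM were scaled by the trimmed mean of M-values (TMM), and log2 fold changes are *Gpr174*-/Y over WT. Scaling by total counts instead moved the median log2 fold change of all genes by 0.27, from 0.00 to 0.28, because the TMM factors were 0.873 to 0.952 in WT and 1.08 to 1.12 in *Gpr174*-/Y libraries. The labels do not tie the libraries to litters or days, and nothing in them shows that the libraries of a group are independent mice. Standard errors, and p-values for other genes, thus measure only the spread between these libraries and would be too small if the libraries were not independent. With replicates 1 and 3 of each group alone, 0 genes passed the adjusted p in edgeR's quasi-likelihood test, although 5026 had an unadjusted p under 0.05.

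Promoter windows are shown first, since the lower and the overlapping genes can be set beside each other and since *Dmd* has starts far apart. RefSeq windows were read for 6 of the 8 genes, 8 windows in all. None were read for *Dtna* and *Aqp4*, because their chromosome was left out. The 250 bases before the start are printed 5′ to 3′ on the gene's strand, on GRCm38.p6. Capitals mark E-boxes (CANNTG), the letters that MyoD-family and many other factors bind, counted with overlaps and read alike on both strands. For *Dmd*, the window before the full-length transcript was chrX:82948620-82948869 on the plus strand and that before the short transcript was chrX:85048045-85048294 on the plus strand. The windows of *Utrn* (chr10:12861736-12861985), *Sgca* (chr11:94976328-94976577) and *Sgcd* (chr11:47379326-47379575) lay on the minus strand.
Dmd, start of the full-length transcript: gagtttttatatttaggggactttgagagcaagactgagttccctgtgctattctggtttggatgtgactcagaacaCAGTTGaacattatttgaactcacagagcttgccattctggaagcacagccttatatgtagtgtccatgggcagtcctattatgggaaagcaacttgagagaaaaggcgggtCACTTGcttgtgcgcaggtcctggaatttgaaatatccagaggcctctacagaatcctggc
Dmd, start of the short transcript: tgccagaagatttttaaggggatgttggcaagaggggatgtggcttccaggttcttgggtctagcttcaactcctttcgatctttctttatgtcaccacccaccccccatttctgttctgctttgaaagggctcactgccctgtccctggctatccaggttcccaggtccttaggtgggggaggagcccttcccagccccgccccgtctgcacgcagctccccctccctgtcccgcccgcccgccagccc
Utrn: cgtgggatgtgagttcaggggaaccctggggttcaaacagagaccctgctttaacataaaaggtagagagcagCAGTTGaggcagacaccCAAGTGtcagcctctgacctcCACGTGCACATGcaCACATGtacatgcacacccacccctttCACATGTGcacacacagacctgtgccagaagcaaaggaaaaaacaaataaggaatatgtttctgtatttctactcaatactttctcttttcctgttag
Sgca: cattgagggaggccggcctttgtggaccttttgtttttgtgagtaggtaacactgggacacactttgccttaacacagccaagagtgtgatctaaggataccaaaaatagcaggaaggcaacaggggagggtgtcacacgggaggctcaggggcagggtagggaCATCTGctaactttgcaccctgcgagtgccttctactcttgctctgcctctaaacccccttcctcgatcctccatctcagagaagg
Sgcd: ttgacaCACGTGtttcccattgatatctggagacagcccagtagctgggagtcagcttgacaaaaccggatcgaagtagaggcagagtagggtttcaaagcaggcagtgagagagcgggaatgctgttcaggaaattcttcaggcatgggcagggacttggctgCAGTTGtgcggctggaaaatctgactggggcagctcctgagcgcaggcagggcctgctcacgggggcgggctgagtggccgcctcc

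The window before the full-length *Dmd* start held 2 E-boxes, 1 MEF2 motif and 1 CArG box, whereas that before the short transcript held none of them. The start sites of these transcripts were 2099425 bases apart. *Utrn* held 7 E-boxes, *Sgcd* held 2 and *Sgca* held 1. The *Sgcd* window also held 1 M-CAT motif (CATTCC on either strand). The window of *Sgcb* held 0 E-boxes, and each of the *Dag1* windows, which overlap, held 1. An E-box was found in 66.2% of 32851 promoter windows of this length, M-CAT in 12.6%, a MEF2 motif in 2.92% and a CArG box in 1.47%. The N-box (CCGGAA on either strand), found in 12.03% of windows, was in none of the 8 windows read. Only the *Dmd* windows were matched to transcript starts, so the window of *Utrn* need not be the promoter used in these muscles. These matches are letters in a window and were not set against any measurement of binding.

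Most genes of the group were lower in *Gpr174*-/Y than in WT ischemic muscle, by amounts from 1.34-fold for *Sgcb* to 16.3-fold for *Aqp4* in mean CPM. Between those lay *Dmd*, *Dtna*, *Sgca* and *Sgcd*, while *Dag1* and *Utrn* overlapped between the groups. With TMM scaling, 6 of the 8 genes passed an adjusted p of 0.05, all 6 of them lower, and 2 (*Sgcd* and *Aqp4*) also passed an absolute log2 fold change of 1. Over all 14395 genes, 54.6% passed the adjusted p, 27.6% as lower, and 8.28% passed both thresholds, 4.84% as lower and 3.45% as higher. The same 6 genes did not overlap between the groups, which held for 65.6% of all genes. The genes were chosen with this contrast known, so nothing is read from these counts.

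**Figure D1:**
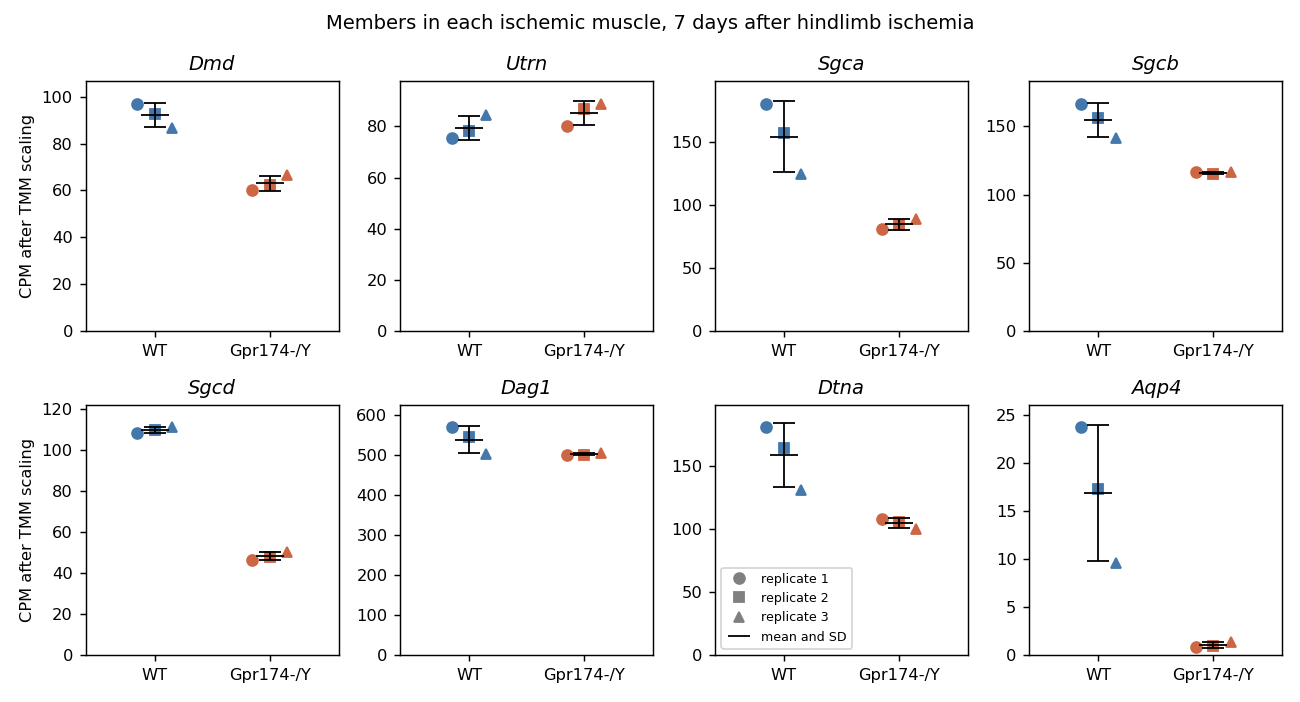
Each panel plots 1 gene, with TMM-scaled CPM on a linear axis from 0 for the 3 WT and 3 *Gpr174*-/Y libraries, where points are libraries (circle, square and triangle for replicates 1, 2 and 3) and black bars are the mean and SD. *Dmd*, *Sgca*, *Sgcb*, *Sgcd*, *Dtna* and *Aqp4* were lower in each *Gpr174*-/Y library than in each WT library, and *Utrn* and *Dag1* overlapped.

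*Dmd*, which encodes dystrophin, had 1558, 1559 and 1541 counts in the WT libraries and 1263, 1323 and 1427 in the *Gpr174*-/Y libraries. Scaled values were 96.9, 92.8 and 86.6 CPM in WT, against 60.4, 62.3 and 66.4 CPM in *Gpr174*-/Y muscle. The groups did not overlap, and each *Gpr174*-/Y library was below each WT library also in unscaled counts. This gave a log2 fold change of -0.55 (standard error 0.06), or of -0.27 with total-count scaling. *Utrn*, which encodes utrophin, had 1210, 1311 and 1501 counts in WT and 1674, 1842 and 1909 in *Gpr174*-/Y libraries. These were 75.3, 78.0 and 84.3 CPM against 80.0, 86.7 and 88.8 CPM. WT replicate 3 lay above the lowest *Gpr174*-/Y library, so the groups overlapped. For *Utrn*, the log2 fold change was 0.10 (standard error 0.07), and it was 0.38 with total-count scaling.

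Per length, the balance of utrophin to dystrophin transcripts was higher in *Gpr174*-/Y muscle. The ratio of *Utrn* to *Dmd* in FPKM, which divides counts by transcript length and does not depend on the scaling between libraries, was 0.616, 0.689 and 0.847 in WT and 1.09, 1.18 and 1.16 in *Gpr174*-/Y muscle. Summed over all transcripts, *Utrn* was thus below *Dmd* in each WT library and above it in each *Gpr174*-/Y library. Short transcripts held most of both sums, 63.2% to 67.9% for *Dmd* and 72.0% to 79.2% for *Utrn* in TPM, which also divides by length. Single long transcripts were ordered otherwise in WT replicates 1 and 2. NM_007868.6 of *Dmd* had 0.84, 0.79 and 0.78 FPKM in WT and 0.5, 0.66 and 1.03 in *Gpr174*-/Y muscle. NM_011682.4 of *Utrn* had 1.22, 1.25 and 0.76 against 1.18, 1.51 and 2.14. Mean FPKM was 15.2 ± 0.207 (SD, n = 3) for *Dmd* and 10.9 ± 1.65 for *Utrn* in WT, and 12.5 ± 0.398 and 14.3 ± 0.962 in *Gpr174*-/Y muscle.

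The 3 sarcoglycans differed from each other. *Sgcd*, which encodes δ-sarcoglycan, part of the core of the subcomplex together with β-sarcoglycan, had 1741, 1842 and 1975 counts in WT and 972, 1019 and 1081 in *Gpr174*-/Y libraries. These were 108, 110 and 111 CPM against 46.4, 48.0 and 50.3 CPM. Its WT libraries were the closest to each other of all 8 genes, with a coefficient of variation of 1.21%, and its groups lay far apart. The mean was 2.27-fold lower, a log2 fold change of -1.18 (standard error 0.05), or of -0.91 with total-count scaling. *Sgcb*, which encodes β-sarcoglycan, had 2678, 2621 and 2524 counts against 2436, 2441 and 2503. Its CPM were 167, 156 and 142 in WT and 116, 115 and 116 in *Gpr174*-/Y muscle, with no overlap. Its log2 fold change was the smallest of the sarcoglycans, at -0.42 (standard error 0.07), or -0.14 with total-count scaling.

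*Sgca*, which encodes the muscle-specific α-sarcoglycan, had 2898, 2647 and 2220 counts in WT and 1690, 1785 and 1915 in *Gpr174*-/Y libraries. These were 180, 158 and 125 CPM against 80.8, 84.1 and 89.1 CPM. The WT libraries were spread widely, and WT replicate 3 was the nearest to the *Gpr174*-/Y libraries without overlapping them. *Sgca* had a log2 fold change of -0.87 (standard error 0.13), which was -0.58 with total-count scaling, -0.55 on both FPKM scales, -0.73 without WT replicate 1 and -0.99 without WT replicate 3. In FPKM, the ratio of *Sgcd* to *Sgcb* was 0.281, 0.302 and 0.323 in WT and 0.170, 0.173 and 0.176 in *Gpr174*-/Y muscle. The ratio of *Sgca* to *Sgcb* was 2.78, 2.60 and 2.27 against 1.80, 1.91 and 2.01. Both ratios were lower in each *Gpr174*-/Y library than in each WT library.

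**Figure D2:**
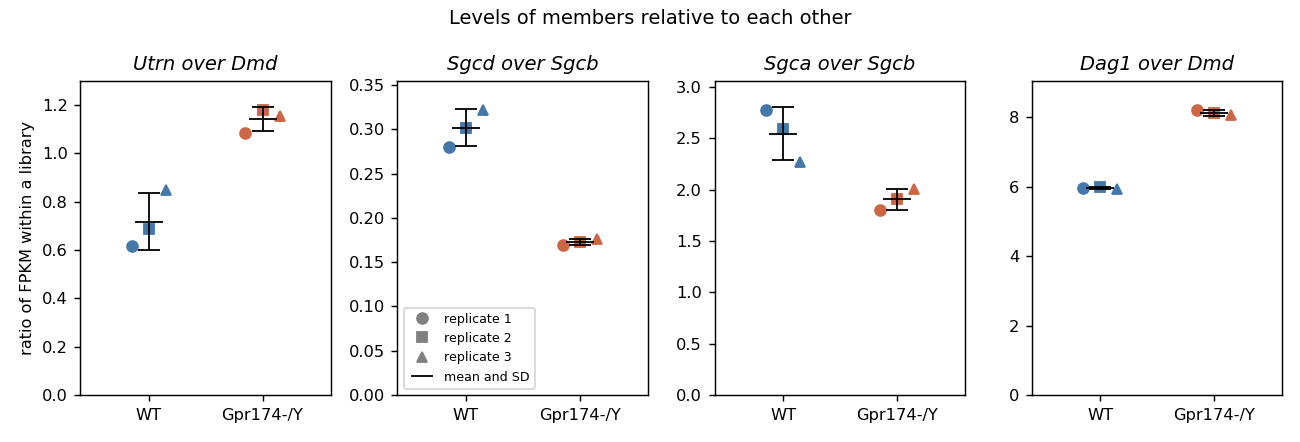
Each panel plots the ratio of FPKM of a pair of genes within a library, on a linear axis from 0, for the 3 WT and 3 *Gpr174*-/Y libraries, with points for libraries and black bars for the mean and SD. *Utrn* over *Dmd* and *Dag1* over *Dmd* were higher, and *Sgcd* over *Sgcb* and *Sgca* over *Sgcb* lower, in each *Gpr174*-/Y library than in each WT library.

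*Dag1* encodes both the outer and the membrane-spanning subunit of dystroglycan and was the most abundant of the 8 genes in counts, with 9135, 9150 and 8929 in WT and 10472, 10595 and 10835 in *Gpr174*-/Y libraries. Scaled, these were 568, 545 and 502 CPM against 500, 499 and 504 CPM, and WT replicate 3 lay within the *Gpr174*-/Y range. The log2 fold change was -0.10 (standard error 0.07) with TMM scaling, and its sign turned to 0.17 with total-count scaling. Relative to dystrophin, dystroglycan transcripts were more abundant in *Gpr174*-/Y muscle, with ratios of *Dag1* to *Dmd* in FPKM of 5.98, 6.00 and 5.93 in WT and 8.22, 8.12 and 8.06 in *Gpr174*-/Y muscle.

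*Dtna*, which encodes α-dystrobrevin, the partner of the syntrophins, had 2904, 2763 and 2331 counts in WT and 2265, 2250 and 2155 in *Gpr174*-/Y libraries. These were 181, 164 and 131 CPM against 108, 106 and 100 CPM, without overlap. With TMM scaling the log2 fold change was -0.60 (standard error 0.12), and with total counts it was -0.32. The ratio of *Dtna* to *Dmd* in FPKM overlapped between the groups, at 2.78, 2.73 and 2.42 in WT and 2.84, 2.79 and 2.62 in *Gpr174*-/Y muscle.

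*Aqp4* had the largest difference of the 8 genes under every setting tried. It had 381, 290 and 171 counts in WT and 18, 19 and 29 in *Gpr174*-/Y libraries, and each of these counts was above the floor of 3. Scaled, these were 23.7, 17.3 and 9.61 CPM against 0.860, 0.895 and 1.35 CPM. The lowest WT library, replicate 3, was still far above the highest *Gpr174*-/Y library. The log2 fold change was -4.01 (standard error 0.41), and over 17 alternatives it ranged from -4.29 without WT replicate 3 to -1.67 on the log2(FPKM + 1) scale, which understates changes of low genes. The WT libraries had a coefficient of variation of 41.9%, the widest of the 8 genes. Among the WT libraries, *Aqp4* and the sum of the 18 mature fibre markers were both highest in replicate 1 and lowest in replicate 3. Only *Myh1* and *Myh2* of these markers went the other way. The others fell from replicate 1 to replicate 3, for example *Myh4* with 31348.5, 22676.7 and 10481.4 CPM. This order was not particular to *Aqp4*. *Dmd*, *Sgca*, *Sgcb*, *Dag1* and *Dtna* also fell in CPM from WT replicate 1 to 3, whereas *Sgcd* and *Utrn* rose. In WT, replicate 2 lay between the other replicates for 86.0% of 3859 abundant genes.

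**Figure D3:**
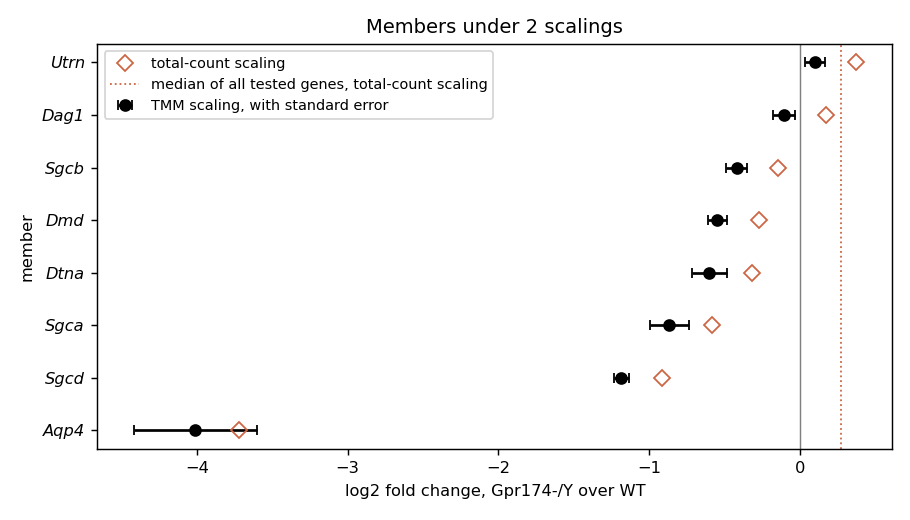
The horizontal axis gives the log2 fold change, *Gpr174*-/Y over WT, for each of the 8 genes, as filled points with standard errors for TMM scaling and as open diamonds for total-count scaling, and the dotted line is the median of all tested genes under total-count scaling. *Aqp4* lay at -4.01 and *Sgcd* at -1.18, and *Dag1* changed sign between the scalings, from -0.10 to 0.17.

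Mature fibre transcripts were less abundant in the same *Gpr174*-/Y libraries. All 18 mature fibre markers fell (edgeR's quasi-likelihood test, Benjamini-Hochberg adjustment, adjusted p under 0.05), with a median log2 fold change of -1.45 against 0.00 over all genes, and their summed level was 140357 to 206602 CPM in WT and 62644 to 70028 CPM in *Gpr174*-/Y muscle. In these whole-muscle samples, fewer cells of a type and less RNA per cell cannot be told apart. The counts of each gene were therefore also divided by the counts on these 18 markers in the same library, a ratio chosen after the values were seen. On that scale 98.1% of all tested genes were higher in *Gpr174*-/Y muscle, with a median log2 ratio of 1.37.

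*Aqp4* was the only one of the 8 genes that was lower on that scale too. It had 11.5, 9.64 and 6.85 counts per 100000 marker counts in WT and 1.23, 1.34 and 2.15 in *Gpr174*-/Y muscle, a 5.93-fold lower mean without overlap. *Sgcd* overlapped between the groups, at 52.4, 61.2 and 79.1 in WT and 66.3, 71.7 and 80.3 in *Gpr174*-/Y muscle. The other 6 genes were higher in each *Gpr174*-/Y library than in each WT library on this scale, from 1.45-fold for *Sgca* to 2.75-fold for *Utrn*. *Dmd*, for example, had 46.9, 51.8 and 61.7 counts per 100000 marker counts in WT and 86.2, 93.0 and 106 in *Gpr174*-/Y muscle. The direction for *Dmd*, *Sgca*, *Sgcb*, *Sgcd* and *Dtna* thus depended on whether a gene was set against all transcripts or against those of mature fibres.

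Markers of other cells moved with the groups as well. Of 12 regenerating fibre markers, 9 rose and 0 fell, with a median log2 fold change of 0.80, a summed level of 2937 to 5698 CPM in WT and 5857 to 6854 CPM in *Gpr174*-/Y muscle. *Mymx*, which encodes a protein of myoblast fusion, rose most among them (log2 fold change 1.84, adjusted p = 0.00147). Of 9 endothelial markers, 8 fell and *Vwf* rose, and their sum was 1037 to 1232 CPM against 659.9 to 749.1 CPM. All 6 macrophage markers rose, from sums of 1009 to 1469 CPM to sums of 2442 to 2450 CPM. Of 7 Schwann cell markers 1 fell and 6 did not pass. For smooth muscle 2 of 6 markers rose and 2 fell, for fibroblasts 2 of 6 rose and 3 fell, and for adipocytes 2 of 5 rose and 1 fell. No marker of these lists was at 0 in any library, and the part of these cells in the values of the 8 genes was not tested.

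In level per length, *Sgca* and *Dag1* led and *Aqp4* came last in both groups. These FPKM are scaled by library total and not by TMM. In WT muscle, mean FPKM was 97.4 ± 13.5 (SD, n = 3) for *Sgca*, 90.8 ± 1.66 for *Dag1*, 40.2 ± 3.49 for *Dtna*, 38.1 ± 1.42 for *Sgcb*, 15.2 for *Dmd*, 11.5 ± 0.375 for *Sgcd*, 10.9 for *Utrn* and 3.01 ± 1.15 for *Aqp4*. *Sgca* and *Dag1*, *Dtna* and *Sgcb*, and *Sgcd* and *Utrn* were neighbours whose libraries overlapped. In *Gpr174*-/Y muscle, mean FPKM was 102 ± 2.26 for *Dag1*, 66.0 ± 4.85 for *Sgca*, 34.6 ± 0.737 for *Sgcb*, 34.5 ± 0.443 for *Dtna*, 14.3 for *Utrn*, 12.5 for *Dmd*, 5.98 ± 0.237 for *Sgcd* and 0.223 ± 0.0666 for *Aqp4*. *Sgcb* and *Dtna* overlapped, whereas *Dag1* stood above *Sgca* and *Utrn* above *Dmd* in each of these libraries.

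The table listed 9 transcripts of *Dmd*, and a single short one took the largest share of the reads in each library, from 38.2% to 56.2%. NM_001314036.1, with an effective length of 4518 bases against 13817 for the full-length NM_007868.6, is of the size of Dp71, the short product made from an internal promoter. Together with its near copy NM_001314034.1, it held 53.7%, 53.2% and 55.6% of the *Dmd* counts in WT and 56.3%, 55.3% and 49.8% in *Gpr174*-/Y muscle. The groups overlapped, so the lower *Dmd* level was not accompanied by a separation in this share. The full-length transcript held 13.7%, 13.0% and 13.1% in WT and 10.6%, 13.3% and 19.1% in *Gpr174*-/Y muscle, also with overlap. Reads in the shared 3′ exons fit several of these transcripts, and their split is an estimate. In WT replicate 3, 17.4% of *Dmd* counts were put on NM_001314034.1, against 0.0% to 2.6% in the other libraries, which shows how far the split between near copies can move.

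For *Utrn*, the short XM_030245068.1, with an effective length of 4849 bases, held 50.4%, 53.4% and 60.5% of counts in WT and 57.5%, 59.5% and 55.7% in *Gpr174*-/Y muscle, with overlapping groups. *Sgca* was listed with 3 transcripts, and the share of the curated transcript NM_009161.4 was lower in *Gpr174*-/Y muscle. It was 16.8%, 16.4% and 15.0% in WT and 9.07%, 5.80% and 5.42% in *Gpr174*-/Y muscle, and the corresponding shares in TPM, 14.3%, 13.9% and 12.7% against 7.61%, 4.84% and 4.51%, did not overlap either. The predicted XM_017314395.2 of the same gene held 38.0%, 39.7% and 41.0% against 49.9%, 48.6% and 43.4%. *Sgcb* and *Aqp4* had 1 transcript each, and NM_011891.5 took 98.2% to 99.8% of the *Sgcd* counts.

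*Dtna* was listed with 19 transcripts, of which 8 had at least 10 counts in every library. Its transcripts are spliced in many ways, and the products differ in whether they keep the C-terminal region that is phosphorylated on tyrosine. XM_011246838.1 held 10.4%, 16.4% and 15.0% of *Dtna* counts in WT and 23.4%, 22.8% and 24.3% in *Gpr174*-/Y muscle. XM_030250322.1 was also higher in share, at 5.7%, 6.8% and 9.1% against 12.9%, 12.3% and 14.6%. NM_001285808.1 was lower, at 15.8%, 12.7% and 13.9% against 11.6%, 9.7% and 4.3%. These shares did not overlap between the groups, and they were picked from 19 for that reason, but they are not all that did so. XM_011246835.1 was lower without overlap, at 17.0%, 17.1% and 13.4% against 4.8%, 4.8% and 11.8%. XM_011246833.1 was also lower and XM_030250325.1 higher without overlap. *Dag1* had 9 transcripts that differ little, and NM_001276486.1 went from 33.7% and 28.4% in WT replicates 1 and 2 to 0.0% in WT replicate 3, so its shares were not compared.

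**Figure D4:**
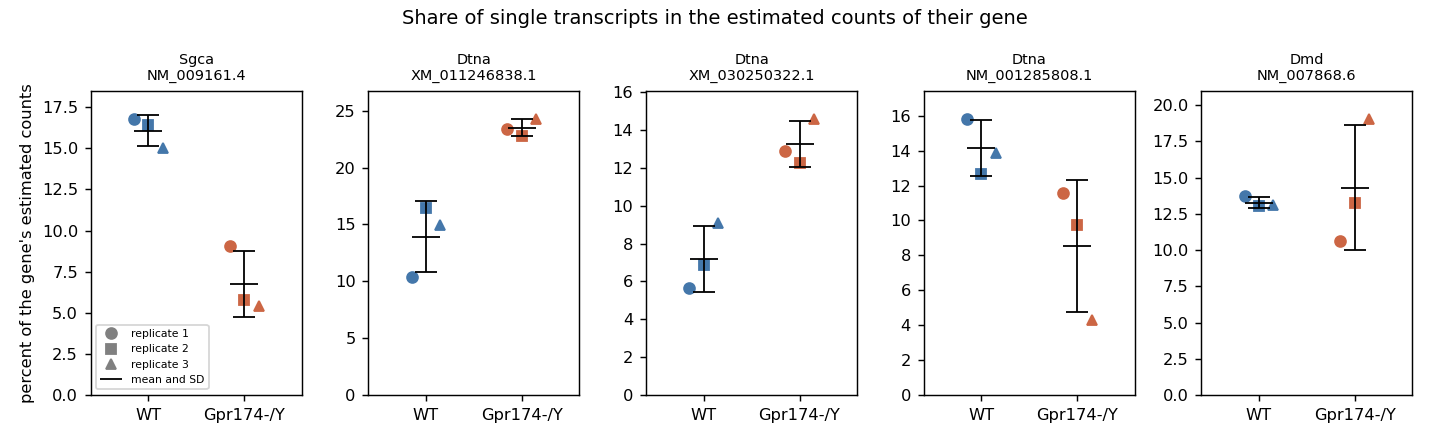
Each panel plots the percent of a gene's estimated counts put on 1 transcript, on a linear axis from 0, for the 3 WT and 3 *Gpr174*-/Y libraries, with points for libraries and black bars for the mean and SD. The shares of NM_009161.4 in *Sgca* and NM_001285808.1 in *Dtna* were lower and those of XM_011246838.1 and XM_030250322.1 in *Dtna* higher in each *Gpr174*-/Y library, while that of the full-length NM_007868.6 in *Dmd* overlapped.

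Across the 6 libraries, log2 CPM of *Dmd* followed that of *Aqp4* with a Pearson r of 0.998, and *Utrn* had a negative r with each of the other 7 genes, from -0.58 with *Sgcd* to -0.85 with *Dtna*. With 3 libraries in each group, such values carry the difference between the groups. The genes most like *Dmd* were *Ss18l2*, *Cpped1* and *Asb11*, each with r of 1.00, and 1882 of 13628 genes compared had r above 0.95. Those most like *Aqp4* were *Ldhd*, *Tnxb* and *Riok3* (r of 0.999), among 2165 genes above 0.95. Those most like *Utrn* were *Rtn4rl2* and *Gdap2* (r of 0.989 for both) and an unnamed gene with Entrez identifier 115485726 (0.986), and 59 genes were above 0.95.

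The other genes of the complex moved in both directions. Of 12 genes listed, 10 were tested, of which 3 fell, 2 rose and 5 did not pass, against 27.6% lower and 27.0% higher over all genes, and the median log2 fold change was -0.08, or 0.20 with total-count scaling.

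*Sntb2*, which encodes a β-syntrophin found in many tissues, rose from 11.6, 12.7 and 13.1 CPM to 19.1, 18.6 and 22.7 CPM (log2 fold change 0.69, adjusted p = 0.00195). *Drp2*, a dystrophin relative of myelinating Schwann cells, rose from 16.9, 19.6 and 24.9 CPM to 39.6, 35.9 and 38.0 CPM (log2 fold change 0.88, adjusted p = 0.00234). Of the 7 Schwann cell markers 1 fell and 6 did not pass, and the part of these cells in *Drp2* was not tested. *Sspn*, which encodes sarcospan, passed by a small margin (log2 fold change -0.28, adjusted p = 0.0382). That call ended with total-count scaling, where the adjusted p was 0.967, and when any library but WT replicate 3 was left out. *Sgce*, *Sntb1*, *Dtnb*, *Nos1* and *Sntg2* did not pass. *Sgce*, which encodes ε-sarcoglycan, had a log2 fold change of -0.03, and its ratio to *Sgca* in FPKM was 0.144, 0.184 and 0.253 in WT and 0.356, 0.329 and 0.301 in *Gpr174*-/Y muscle. *Nos1*, the neuronal nitric oxide synthase held at the membrane by the complex, had 51.7, 42.0 and 26.4 CPM against 31.6, 35.5 and 42.7 CPM.

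Proteins that bind dystrophin, syntrophin or dystrobrevin were coded by 14 genes, of which 4 fell, 3 rose and 7 did not pass, with a median log2 fold change of -0.06, or 0.21 with total-count scaling. *Synm*, whose intermediate filament protein synemin binds dystrophin and dystrobrevin, fell from 375, 311 and 226 CPM to 86.2, 85.9 and 81.4 CPM (log2 fold change -1.85, adjusted p = 0.000824). *Scn4a*, a sodium channel of adult muscle, fell from 343, 284 and 184 CPM to 93.7, 98.7 and 108 CPM (-1.43, adjusted p = 0.00224). Among potassium channel genes, *Kcnj12* fell (-0.98, adjusted p = 0.0121) and *Kcnj10* rose (0.83, adjusted p = 0.00613). *Mapk12*, a muscle p38 kinase that binds syntrophin, fell (-1.08, adjusted p = 0.000638), and *Dtnbp1*, which encodes the dystrobrevin-binding protein dysbindin, rose (0.21, adjusted p = 0.00793). With total-count scaling 13 of the 14 passed, beside 9313 of 14395 genes, whose median log2 fold change was then 0.28. *Mast2*, *Mark2*, *Dgkz*, *Grb2*, *Cav3* and *Trpc1* passed there but not with TMM scaling, at log2 fold changes from 0.20 to 0.44.

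The sugar chain by which dystroglycan binds laminin is built by the products of 18 listed genes, of which 17 were tested, 8 fell, 2 rose and 7 did not pass. The median log2 fold change was -0.34, or -0.06 with total-count scaling, and no gene of the list passed a log2 fold change of 1. *B3galnt2*, which encodes an enzyme that extends the chain, fell most, from 76.6, 61.9 and 51.5 CPM to 33.9, 34.6 and 34.1 CPM (-0.89, adjusted p = 0.0024). *Gmppb*, which encodes an enzyme that makes the mannose donor of the chain, rose (0.54, adjusted p = 0.00881). *Pomt2*, an O-mannosyltransferase, also passed (0.19, adjusted p = 0.028), but not with DESeq2 nor when any library but WT replicate 3 was left out. With total-count scaling 6 genes passed, and *B3galnt2* kept a negative sign (-0.61, adjusted p = 0.00332).

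Matrix proteins that bind dystroglycan showed no common direction, with 4 of 10 genes lower, 2 higher and 4 that did not pass, and a median log2 fold change of -0.16, or 0.11 with total-count scaling. *Lama1*, a laminin chain of embryonic tissue, rose from 3, 4 and 9 counts to 35, 39 and 56 counts (log2 fold change 2.67, standard error 0.36, adjusted p = 0.00175). *Bgn*, which encodes the proteoglycan biglycan, rose from 980, 1379 and 1931 CPM to 3000, 2941 and 2878 CPM (1.04, adjusted p = 0.00914). *Lama2*, the laminin chain of adult muscle, fell (-0.42, adjusted p = 0.00888), as did *Lamb2* (-0.46, adjusted p = 0.0124). With total-count scaling both missed the threshold, with adjusted p of 0.126 and 0.105. *Agrn*, which encodes agrin, passed with an adjusted p of 0.0495 (log2 fold change -0.41), and 13 of 17 alternatives ended that call, among them leaving out any library but WT replicates 1 and 3.

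The second link between cytoskeleton and matrix, made of integrin and costamere proteins, had 9 of 17 tested genes lower, 2 higher and 6 that did not pass. Over all genes 27.6% were lower and 27.0% higher. The median log2 fold change was -0.38, or -0.10 with total-count scaling. With that scaling 13 genes passed, and *Itgb1* (0.47), *Ahnak* (0.46) and *Sync* (0.24) were then among the higher ones. The largest decreases were in the keratin genes *Krt18*, from 28.1, 36.0 and 45.0 CPM to 8.94, 8.62 and 8.61 CPM (-2.06, adjusted p = 0.000663), and *Krt8*, from 12.3, 14.2 and 17.4 CPM to 4.83, 5.09 and 4.65 CPM (-1.59, adjusted p = 0.00073). *Des*, which encodes desmin, fell as well (-0.72, adjusted p = 0.00269). *Vcl* and *Tln1*, which encode vinculin and talin, rose (0.40, adjusted p = 0.00278, and 0.37, adjusted p = 0.0204), and the call of *Tln1* ended without any 1 of the *Gpr174*-/Y libraries or WT replicate 2. *Itga7*, the laminin-binding integrin chain of muscle, did not pass (0.11, adjusted p = 0.192), although it did with total-count scaling (0.38, adjusted p = 0.00733) and without WT replicate 3. *Csrp3* passed (-1.29, adjusted p = 0.0422) with overlapping groups, at 126, 272 and 483 CPM against 137, 123 and 101 CPM, and 12 of 17 alternatives ended its call, among them leaving out any library but WT replicate 1. Without WT replicate 3 its log2 fold change was -0.72.

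Other water channels were measured for comparison with *Aqp4*. Of 11 listed, 10 were in the table and 4 passed the filter on low counts, of which 2 fell and 0 rose. *Aqp1*, the channel of endothelial cells and red cells, had 248, 199 and 140 CPM in WT and 76.0, 76.3 and 78.9 CPM in *Gpr174*-/Y muscle (-1.34, adjusted p = 0.00197). *Aqp7*, a glycerol channel, fell from 13.4, 13.0 and 10.1 CPM to 3.92, 4.24 and 4.56 CPM (-1.52, adjusted p = 0.000758). *Aqp2* and *Aqp11* did not pass (0.86, adjusted p = 0.0572, and -0.38, adjusted p = 0.0525), although *Aqp2* did with total-count scaling (adjusted p = 0.00985) and *Aqp11* without WT replicate 3. In mean FPKM, *Aqp1* was far above *Aqp4* in both groups, at 65.1 against 3.01 in WT and 31.3 against 0.223 in *Gpr174*-/Y muscle.

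Utrophin is concentrated at the neuromuscular junction, and 10 genes of the postsynaptic membrane were therefore listed beside it, of which 4 rose, 2 fell and 4 did not pass. The embryonic acetylcholine receptor subunit gene *Chrng* rose from 17.5, 23.0 and 29.8 CPM to 74.3, 73.6 and 78.6 CPM (log2 fold change 1.68, adjusted p = 0.0009), and the adult one, *Chrne*, fell from 25.6, 21.0 and 12.1 CPM to 6.07, 6.69 and 6.88 CPM (-1.57, adjusted p = 0.00329). *Chrna1* (1.14, adjusted p = 0.000449) and *Chrnd* (0.92, adjusted p = 0.000871) rose with *Chrng*. *Chrnb1* fell (-0.36, adjusted p = 0.00588) and did not pass with total-count scaling (adjusted p = 0.233). *Utrn* itself, at a log2 fold change of 0.10, differed by less than each of the 6 genes that passed.

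**Figure D5:**
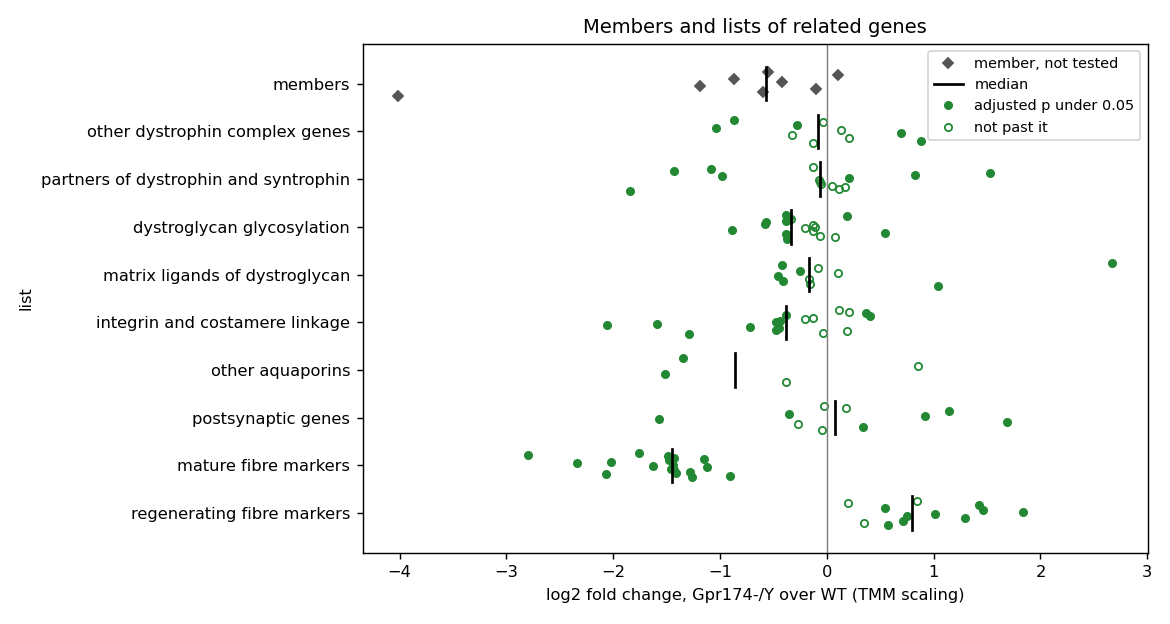
Each row is a list of genes, and each point is 1 tested gene at its log2 fold change with TMM scaling, *Gpr174*-/Y over WT. Filled green points passed an adjusted p of 0.05, open ones did not, grey diamonds are the 8 described genes, which carry no test, and vertical bars are medians. Mature fibre markers (median -1.45) lay on the left, regenerating fibre markers (0.80) on the right, and the other complex genes and the partners on both sides of 0, where their medians change sign with total-count scaling.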

How the data were processed

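RNA of 6 ischemic muscles, 3 WT and 3 *Gpr174*-/Y, was sequenced (BGISEQ-500 in the methods, an Illumina kit in the labels), and samples were grouped by the labels' genotype. The authors deposited expected counts for 58843 RefSeq transcripts, that is estimated reads without normalization, together with FPKM and TPM, and also group means, which were not used. The submitters' processing notes name HISAT2 2.0.4, Bowtie2 2.2.5, RSEM 1.2.12 and GRCm39 without a role for each. The annotation and the use of strand are not given in the sources used here, so antisense or overlapping genes cannot be told apart.

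Expected counts were summed by gene and rounded. The groups were compared in R 4.3.3 by the quasi-likelihood test of edgeR 4.0.16, after TMM scaling and its filter on low counts, with p-values adjusted over 14395 genes by Benjamini-Hochberg. Thresholds were 0.05 and, where stated, an absolute log2 fold change of 1. The biological coefficient of variation was 0.098. The paper's DEGseq was replaced because it has no term for replicate spread. Replicates differed by more than sampling noise. Counts were also simulated for 14377 genes, with the same dispersion for every gene, independent libraries and 200 changed genes, as many higher as lower. Of these 200, 198 were recovered, with 12 false calls. In the data 54.6% of genes passed the adjusted p, so the simulation gives no error rate for the calls made here. Correlation of log2 CPM used a prior count of 2.

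The 8 genes, the lists and the tests were chosen with earlier results of these data known. Named are the 8 genes, *Gpr174*, genes of the lists (by default those past both thresholds and the 2 highest and 2 lowest), and the 3 genes most like *Dmd*, *Utrn* and *Aqp4*. Some genes of the lists are not reported here. Promoter sequences are from RefSeq on GRCm38.p6, another build than that of the counts, and were matched by symbol. Alternatives were DESeq2 1.42.0, limma 3.58.1 (voom, and log2 of FPKM plus 1 or plus 0.1 where 3 libraries reached an FPKM of 1), other scalings and filters, a replicate block, leaving out libraries, and TPM for transcript shares. Counts per mature fibre marker were added after seeing the data. Python 3.11.15, numpy 2.4.6, pandas 2.3.3 and matplotlib 3.10.9 were used.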

Additional observations from a re-analysis of the deposited data

How the results depend on the processing

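The 8 genes kept their direction under all 17 other settings, except *Dag1*, which kept it in 14 and turned positive with total counts and with both FPKM scales. Divided by the mature fibre markers, a scale added after seeing the data on which 98.1% of all genes were higher, log2 values turned to 0.83 for *Dmd*, 0.54 for *Sgca*, 0.96 for *Sgcb*, 0.18 for *Sgcd* and 0.79 for *Dtna*, and *Aqp4* stayed lower at -2.57. Genes past both thresholds numbered 1192, of which 41.6% were higher. That share was 76.4% with total counts, 79.4% on log2(FPKM + 0.1) and 74.9% on log2(FPKM + 1). On log2(FPKM + 1), 645 genes passed both.

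With replicates 1 and 3 of each group alone, edgeR called 0 genes at either threshold, although 5026 had an unadjusted p under 0.05, and the lowest adjusted p was 0.0542. The other tools were not run on these 4 libraries. The counts then fell to 0 from 6 of the 8 genes (6 unadjusted), 5 of the other complex genes (4), 7 partners (6), 10 glycosylation genes (9), 6 matrix ligands (4), 11 integrin and costamere genes (8), 2 aquaporins (2) and 6 postsynaptic genes (6). The 8 genes were chosen with the contrast known, so nothing is read from their counts, here or under the replicate block below. Leaving out 1 library gave 924 to 1826 genes past both thresholds, the highest without WT replicate 3, and 5457 to 9165 past the adjusted p. With both FPKM scales, 12 partners, 6 glycosylation genes and 3 matrix ligands passed. With total counts, 13 partners and 6 glycosylation genes did. The median log2 fold change of all genes was 0.28 with total counts, 0.28 on log2(FPKM + 0.1) and 0.24 on log2(FPKM + 1), against 0.00 with TMM scaling. The cause was not tested.

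Signs reversed for genes that had not passed. The log2 fold change of *Sgce* was 0.24 with log2(FPKM + 0.1) and total counts, 0.23 with log2(FPKM + 1) and from -0.10 to 0.046 without 1 library, positive without WT replicate 3. That of *Nos1* was 0.18, 0.16 and 0.14 with log2(FPKM + 0.1), total counts and log2(FPKM + 1), and from -0.35 to 0.11 without 1 library, positive without WT replicate 1. That of *Sntb1* was from -0.080 to 0.42 without 1 library, negative without WT replicate 1. With the replicate number as a block, 1139 genes passed both thresholds and 6812 the adjusted p, 6 of the 8 genes among them. Among named genes, the calls of *Agrn*, *Csrp3*, *Pomt2* and *Sspn* ended under the block. Same-numbered samples are different mice, and their deviations from the group means did not correlate (-0.026, -0.011 and -0.037 over 3859 genes). No pairing by number was thus seen, but with 3 libraries a group a small effect of a shared day could go unseen. The differences between the group means of the *Dmd*, *Sgca* and *Utrn* transcript shares moved by less than the spread between libraries with TPM or without any 1 library, although the shares themselves were at other levels in TPM (72.0% to 79.0% against 50.4% to 60.5% of counts for *Utrn* in WT). At 3 libraries a group and 18 to 29 *Aqp4* counts in *Gpr174*-/Y libraries, the size of the *Aqp4* difference is less certain than its direction.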
